A study of Mus musculus with 18 samples.

Results

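The genes described here encode the tumour necrosis factor (TNF) superfamily, the ligands related to TNF and their receptors. They were taken from the deposited expression table by name: every symbol that begins with Tnfsf or Tnfrsf, together with Tnf, Lta, Ltb, Ltbr, Cd40, Cd40lg, Cd27, Cd70, Fas and Fasl. This gave 43 of the 26538 genes in the table, which were 18 ligands, 24 receptors and 1 antisense RNA, Tnfsf13os. A mean of at least 0.5 FPKM (fragments scaled to the length of the gene and to the number of mapped fragments) over all tumours was reached by 28 of the 43, which were 7 ligands, 20 receptors and the antisense RNA. The last members inside this minimum were Tnfrsf11b at 0.552 and Tnfsf14 at 0.601 FPKM, and the first outside it were Cd27 at 0.460 and Tnfsf11 at 0.369 FPKM.

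RNA was sequenced from 18 mouse tumours that were not themselves ablated and were removed after another tumour had been. There were 3 tumours in each of 6 groups: cryoablation (freezing), radiofrequency ablation (heating by an alternating current) and cryo-thermal therapy (freezing and radiofrequency heating joined), each without and with anti-PD-1, an antibody to a receptor that holds T cells back. Every animal had an ablation, so each comparison is between treated groups. Mouse strain, tumour line, age and day of removal are not stated in the sources used here, nor is whether each tumour of a group was from an animal of its own. The p-values therefore measure the spread between these tumours, which may be technical in part.

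Most TNF superfamily ligands are made as trimers on the cell surface and bind receptors on a neighbouring cell. Receptors with a death domain, such as Fas and Tnfrsf10b, can recruit FADD and caspase-8 and start cell death. Receptors without one, such as Cd40, Tnfrsf4 and Tnfrsf18, bind TRAF adaptors and activate NF-kappaB. In tumours the family is best known for costimulation of T cells and activation of antigen presenting cells.

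Relative sequencing depth differed little between tumours (0.983 to 1.019). The cells of the tumours differed more. The T cell list, of which 8 of 10 genes passed the minimum, summed to 2.59 to 3.35 FPKM after cryoablation, 4.93 to 11.3 after radiofrequency and 11.1 to 36.2 after cryo-thermal therapy. With anti-PD-1 it summed to 4.96 to 20.9, 8.72 to 16.9 and 33.8 to 36.3 FPKM in the same order. Erythroid genes summed to 557 to 772 FPKM after cryoablation, 36.6 to 992 after radiofrequency and 23.6 to 210 after cryo-thermal therapy. In the groups given anti-PD-1 these sums were 53.0 to 104, 45.9 to 95.1 and 80.9 to 316 FPKM in the same order. Keratinocyte and hair follicle genes were high in 3 of the 18 tumours. Their mean log2 level was 4.13 in replicate 1 of the cryo-thermal group with anti-PD-1, 3.46 and 3.40 in replicates 1 and 2 of the cryoablation group with it, and 2.67 in the next tumour. The 4 melanocyte markers were under the minimum. Of 4 epithelial markers Krt8 and Krt18 were under it, and the other 2, Epcam and Cdh1, passed it. Cdh1 read 1.75 to 5.19 FPKM over the 18 tumours. Cryoablation plus anti-PD-1 replicate 1, the highest of its group in T cell genes, was also the highest of its group in 22 of the 28 described members. In the other groups the tumour highest in T cell genes was so in fewer members. These were 8 (cryoablation), 16 (radiofrequency) and 18 (cryo-thermal), and with anti-PD-1 12 (radiofrequency) and 14 (cryo-thermal). No such count was made over all genes. Because the samples are bulk tumour, fewer cells of a type and less RNA per cell cannot be told apart in any result below.

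Levels spanned a wide range, and the most abundant members were receptors. Tnfrsf12a, the receptor of the ligand Tnfsf12, stood first with a mean of 190 FPKM, followed by Tnfrsf1a (45.6), the main TNF receptor of most tissues. Ltbr, the lymphotoxin beta receptor, had 25.7 and Tnfrsf1b, the other TNF receptor, 24.0 FPKM. Tnfrsf9 (CD137) had 13.4 and Tnfrsf14 (HVEM) 11.4 FPKM. The most abundant ligands were Tnfsf9, which binds Tnfrsf9, at 7.67 and Tnfsf12 at 4.85 FPKM. In GENCODE vM21 48.3% of the exon bases of Tnfsf12 and 60.0% of those of Tnfsf13 lie in the readthrough gene Tnfsfm13 on the same strand, and 14.9% of those of Tnfsf9 overlap the antisense gene Gm11110, so their levels are uncertain. The median over the described members was 2.96 FPKM for receptors and 1.46 for ligands. Cryo-thermal therapy plus anti-PD-1 had the highest group mean for 19 of the 28, and cryoablation alone had the lowest for 16. These counts were not made over all genes, so whether they are particular to the family is not known.

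**Figure D1:**
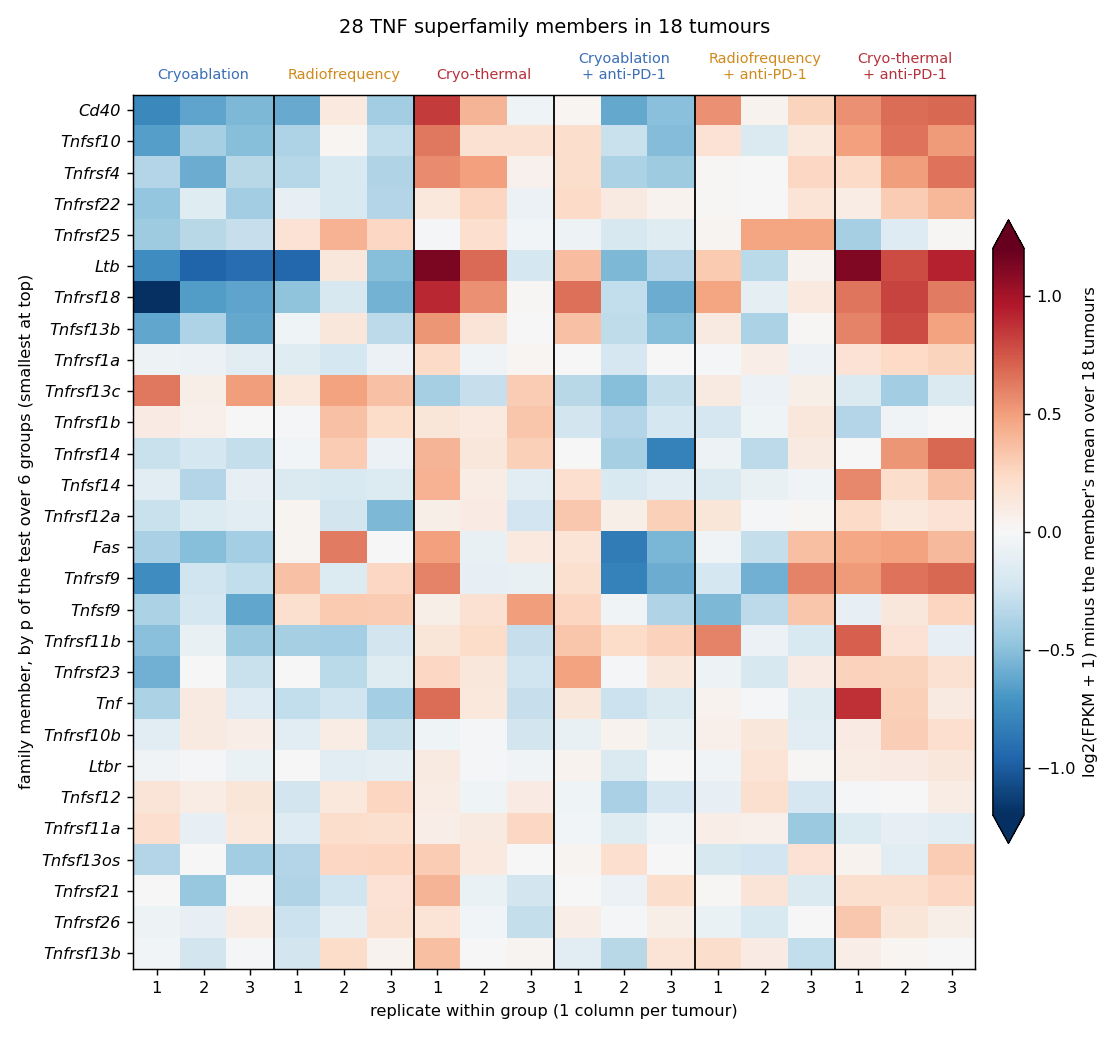
Each row is 1 of the 28 described TNF superfamily members and each column 1 tumour, grouped by treatment; colour gives log2(FPKM + 1) minus the member's mean over 18 tumours. Rows are ordered by the p of the test for any difference among the 6 groups, and the upper rows are mostly blue in the 3 cryoablation tumours and red in the 3 tumours of cryo-thermal therapy plus anti-PD-1. This order itself puts the rows with the clearest group contrasts at the top.

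Over the 6 groups, 14 of the 28 described members (4 ligands and 10 receptors) differed in a moderated F test of limma at an adjusted p of 0.05. Of all 12587 genes tested 18.0% did. The 8 with the smallest p were Cd40, Tnfsf10, Tnfrsf4, Tnfrsf22, Tnfrsf25, Ltb, Tnfrsf18 and Tnfsf13b, with adjusted p from 0.00841 to 0.0170. The other 6 were Tnfrsf1a, Tnfrsf13c, Tnfrsf1b, Tnfrsf14, Tnfsf14 and Tnfrsf12a. Leaving out cryoablation replicate 1 or cryo-thermal plus anti-PD-1 replicate 2 gave 7 in place of 14 (6.78% and 7.60% of all genes), and leaving out cryoablation replicate 3 gave 9 (9.64%).

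After cryo-thermal therapy, compared with cryoablation, the ligands Ltb, Tnfsf10, Tnfsf13b and Tnfsf9 and the receptors Tnfrsf18, Cd40, Tnfrsf4 and Tnfrsf22 rose, and none of the 28 fell. This comparison asks how the joined treatment differs from freezing alone in a tumour elsewhere in the animal. The 8 that rose are 28.6% of the described members, where 15.0% of all genes passed the test in either direction and 8.01% rose and 6.96% fell. The median log2 fold change of FPKM + 1 was 0.35 over the described members and -0.01 over all genes tested. In the same comparison all 8 tested T cell genes and 3 of 7 tested NK and cytotoxic genes rose, 2 of 6 macrophage genes rose and 1 fell, all 5 erythroid genes fell and 3 of 4 neutrophil genes fell. The part of these cell types in the change of the members was not tested.

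Ltb, the transmembrane partner that anchors lymphotoxin alpha on lymphocytes (NCBI gene 16994), had the largest change of the ligands. It read 0.501, 0.291 and 0.337 FPKM after cryoablation, 0.308, 1.76 and 0.764 after radiofrequency and 4.49, 3.03 and 1.17 after cryo-thermal therapy. With anti-PD-1 it read 2.25, 0.725 and 0.972 in the cryoablation group, 2.11, 1.01 and 1.59 in the radiofrequency group and 4.41, 3.32 and 3.77 in the cryo-thermal group. All 3 cryo-thermal tumours lay above all 3 cryoablation tumours, with replicate 3 the lowest of them. The mean was 2.90 ± 1.66 against 0.376 ± 0.110 FPKM (SD, n = 3), a ratio of 7.71, with a log2 fold change of 1.41 (SE 0.32, limma adjusted p = 0.0117).

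Tnfsf10 (TRAIL; 22035), the ligand of the death receptor Tnfrsf10b, was low in all tumours. Its values were 0.0792, 0.295 and 0.203 FPKM after cryoablation, 0.325, 0.738 and 0.397 after radiofrequency and 1.65, 0.940 and 0.944 after cryo-thermal therapy. With anti-PD-1 they were 0.979, 0.423 and 0.194, then 0.931, 0.516 and 0.866, then 1.41, 1.68 and 1.44 FPKM. The cryo-thermal tumours were above every tumour of the other ablations given alone, and the cryo-thermal tumours with anti-PD-1 were above every tumour of the other ablations given with it. Cryo-thermal against cryoablation, the means were 1.18 ± 0.411 and 0.192 ± 0.108 FPKM, a ratio of 6.13, with a log2 fold change of 0.86 (SE 0.18, limma adjusted p = 0.00797). Tnfsf10 was the single member whose call held without cryo-thermal replicate 1.

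Tnfsf13b (BAFF; 24099), which myeloid cells make and B cells need to survive, read 0.534, 0.832 and 0.540 FPKM after cryoablation. It read 1.28, 1.60 and 0.896 after radiofrequency and 2.41, 1.63 and 1.37 after cryo-thermal therapy. With anti-PD-1 it read 2.01, 0.918 and 0.654 (cryoablation), 1.55, 0.821 and 1.38 (radiofrequency) and 2.56, 3.07 and 2.30 FPKM (cryo-thermal). Cryoablation was lowest without anti-PD-1, and no cryoablation tumour reached the lowest cryo-thermal or radiofrequency tumour. Its log2 fold change, cryo-thermal minus cryoablation, was 0.77 (SE 0.20, limma adjusted p = 0.0230), with means of 1.81 ± 0.544 and 0.635 ± 0.171 FPKM. Tnfsf9 (21950), the ligand of the costimulatory receptor CD137, had means of 9.15 ± 1.61 and 5.43 ± 0.922 FPKM, a log2 fold change of 0.66 (SE 0.20, limma adjusted p = 0.0390). Tnfsf9 was as high after radiofrequency (9.22 ± 0.491 FPKM).

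Among receptors, Tnfrsf18 (GITR; 21936), a costimulatory receptor high on regulatory and activated T cells, changed most. Its values were 0.253, 0.876 and 0.923 FPKM after cryoablation, 1.13, 1.62 and 1.02 after radiofrequency and 4.60, 3.38 and 2.01 after cryo-thermal therapy. With anti-PD-1 they were 3.72, 1.44 and 0.983, then 3.14, 1.78 and 2.23, then 3.66, 4.23 and 3.60 FPKM. The 3 ablations given alone did not overlap, in the order cryoablation, radiofrequency, cryo-thermal, and each ablation with anti-PD-1 had a higher mean than without. Cryo-thermal against cryoablation, the log2 fold change was 1.34 (SE 0.28, limma adjusted p = 0.00892), on means of 3.33 ± 1.29 and 0.684 ± 0.373 FPKM. In GENCODE vM21 27.2% of the exon bases of Tnfrsf18 overlap the antisense gene Gm16008, and whether the counting used strand was not given in the sources used here. Regulatory T cell genes, with 3 of 4 over the minimum (Foxp3 was not), summed to 1.31 to 1.52 FPKM after cryoablation and 3.30 to 7.51 after cryo-thermal therapy. Most of the change in the sum was Ctla4, at 0.269, 0.360 and 0.618, then 5.13, 3.88 and 1.65 FPKM. Il2ra read 0.171, 0.162 and 0.161, then 0.842, 0.996 and 0.681 FPKM. Ikzf2 overlapped, at 0.820, 0.762 and 0.672, then 0.848, 0.757 and 0.799 FPKM.

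Tnfrsf4 (OX40; 22163), the next member along chromosome 4 from Tnfrsf18 and another costimulatory receptor of T cells, followed a like order. It read 1.87, 1.43 and 1.91 FPKM after cryoablation, 1.88, 2.23 and 1.86 after radiofrequency and 4.42, 4.15 and 2.80 after cryo-thermal therapy. With anti-PD-1 it read 3.24, 1.82 and 1.72 (cryoablation), 2.69, 2.65 and 3.34 (radiofrequency) and 3.30, 4.19 and 4.75 FPKM (cryo-thermal). The cryo-thermal tumours stood above the tumours of both other ablations given alone, which overlapped each other. The means were 3.79 ± 0.865 and 1.74 ± 0.270 FPKM, and the log2 fold change was 0.79 (SE 0.17, limma adjusted p = 0.00907).

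Cd40 (21939), by which CD40 ligand on T cells activates dendritic cells, macrophages and B cells, had the smallest p over the 6 groups. Its values were 1.12, 1.33 and 1.48 FPKM after cryoablation, 1.37, 2.92 and 1.71 after radiofrequency and 5.46, 3.80 and 2.49 after cryo-thermal therapy. With anti-PD-1 they were 2.68, 1.37 and 1.56, then 4.29, 2.72 and 3.36, then 4.28, 4.75 and 4.82 FPKM. The cryo-thermal and cryoablation tumours did not overlap, while the radiofrequency tumours reached into both. The log2 fold change was 1.05 (SE 0.22, limma adjusted p = 0.00900), on means of 3.92 ± 1.49 and 1.31 ± 0.185 FPKM. Macrophage genes, all 6 over the minimum, summed to 310 to 374 FPKM after cryoablation and 443 to 765 after cryo-thermal therapy. C1qa and C1qb made up most of each sum. Csf1r and Cd68 were higher without overlap, while Adgre1 overlapped, at 13.9, 10.5 and 13.7, then 23.5, 13.0 and 13.8 FPKM. Of the 6 Mertk went the other way, at 7.19, 4.83 and 5.81, then 2.22, 2.29 and 4.23 FPKM. Of 6 dendritic cell genes 2 were over the minimum, and the sums were 1.50 to 1.70 and 1.93 to 5.34 FPKM. The 2 went opposite ways. Ccr7 read 0.145, 0.537 and 0.347 FPKM after cryoablation and 3.27, 2.22 and 0.677 after cryo-thermal therapy. Zbtb46 read 1.26, 1.08 and 0.967, then 0.863, 0.881 and 0.919 FPKM.

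Tnfrsf22 (79202), which like its neighbour Tnfrsf23 encodes a decoy receptor for TRAIL without a death domain, showed a smaller change. It read 5.81, 7.45 and 6.00 FPKM after cryoablation, 7.72, 7.24 and 6.36 after radiofrequency and 9.21, 10.2 and 7.92 after cryo-thermal therapy. With anti-PD-1 it read 9.96, 9.12 and 8.67, then 8.42, 8.34 and 9.49, then 8.96, 10.6 and 11.4 FPKM in the same order. The 3 cryoablation and 3 radiofrequency tumours without anti-PD-1 were the 6 lowest of all 18, and cryo-thermal replicate 3 lay just above them. The log2 fold change, cryo-thermal minus cryoablation, was 0.45 (SE 0.11, limma adjusted p = 0.0156). Its transcripts share 17.3% of their 50-base words with Tnfrsf23, so reads could be split between them; Tnfrsf23 had a log2 fold change of 0.33 (SE 0.16, limma adjusted p = 0.173).

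The calls leaned on single tumours, over all genes as well. Without cryo-thermal replicate 1, the tumour with the most T cell RNA of its group, 1 member (Tnfsf10) passed in place of 8 and 3.65% of all genes in place of 15.0%. Without cryoablation replicate 1 there were 4 members (4.27% of all genes), and without cryoablation replicate 3 or cryo-thermal replicate 2 there were 5 (7.56% and 5.55%).

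**Figure D2:**
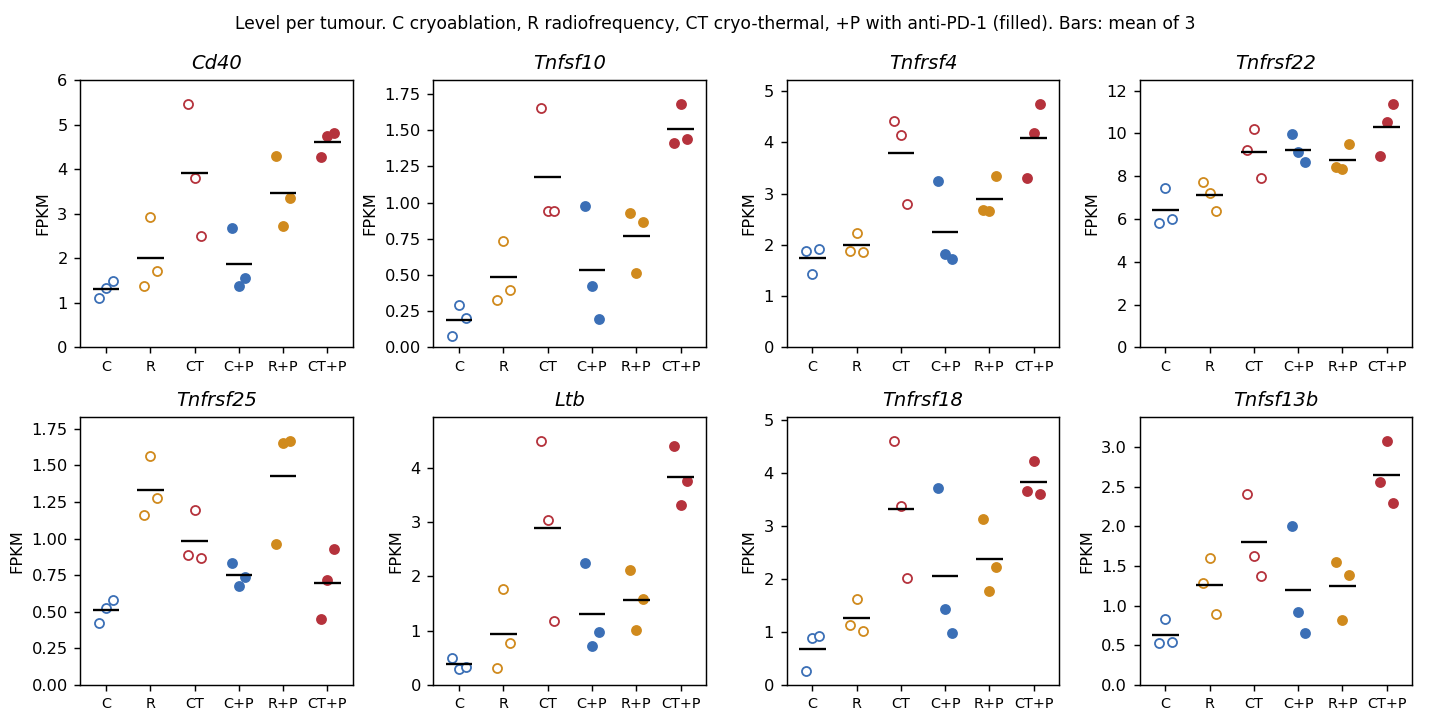
Each point is the FPKM of 1 tumour for the 8 members with the smallest p over the 6 groups; open points are ablation alone, filled points ablation with anti-PD-1, and bars are means of 3 tumours. Without anti-PD-1 the cryo-thermal tumours lie above the cryoablation tumours in all 8 panels, and in the panel of Tnfrsf25 the radiofrequency groups have the highest means (1.33 and 1.43 FPKM). The 8 were chosen by a test over these same groups, so the choice itself favours panels in which groups separate.

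The 250 bases before the RefSeq start site (GRCm38.p6) are shown for the 4 members with the smallest p in this comparison that have a promoter in the table used, so that genes that rose together can be read side by side. Such a sequence was matched for 32 of the 43 members and 20 of the 28 described. Capitals mark matches, on either strand, to a kappa B motif or to an interferon response core (GAAANNGAAA). The motifs were searched separately, so that matches could overlap. The windows are chr3:27316827-27317076 for Tnfsf10, chr4:156026072-156026321 for Tnfrsf18, chr4:156013445-156013694 for Tnfrsf4 and chr17:35194257-35194506 for Ltb, all on the plus strand.
Tnfsf10: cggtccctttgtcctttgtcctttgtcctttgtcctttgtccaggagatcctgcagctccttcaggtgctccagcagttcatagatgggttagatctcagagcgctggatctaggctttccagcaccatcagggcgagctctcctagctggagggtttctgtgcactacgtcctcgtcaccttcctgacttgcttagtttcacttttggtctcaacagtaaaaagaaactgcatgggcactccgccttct
Tnfrsf18: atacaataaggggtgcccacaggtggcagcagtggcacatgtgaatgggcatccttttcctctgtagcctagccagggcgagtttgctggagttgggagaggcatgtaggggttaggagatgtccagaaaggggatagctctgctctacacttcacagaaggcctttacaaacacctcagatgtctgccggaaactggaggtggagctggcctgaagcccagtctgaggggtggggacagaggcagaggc
Tnfrsf4: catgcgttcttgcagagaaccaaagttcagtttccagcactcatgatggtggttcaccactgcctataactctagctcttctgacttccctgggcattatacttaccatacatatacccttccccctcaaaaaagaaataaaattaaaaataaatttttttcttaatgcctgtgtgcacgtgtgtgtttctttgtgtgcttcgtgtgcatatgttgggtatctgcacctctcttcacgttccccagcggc
Ltb: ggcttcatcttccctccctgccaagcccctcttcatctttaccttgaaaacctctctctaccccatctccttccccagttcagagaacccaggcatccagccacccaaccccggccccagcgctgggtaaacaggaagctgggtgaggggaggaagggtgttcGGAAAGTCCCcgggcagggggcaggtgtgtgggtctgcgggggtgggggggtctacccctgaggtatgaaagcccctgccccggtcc
The Ltb window holds 1 kappa B match, at -87 to -78 from the start site. No match to either motif lies in the windows of Tnfsf10, Tnfrsf18 and Tnfrsf4. The bases after the RefSeq start of Tnfrsf4 were not found in a GENCODE vM21 transcript of that gene, unlike those of the other 3, so its window may not lie at the start used. The interferon response core was found for 3 of the 20 described members with a promoter (Tnfrsf14, Tnfrsf1b and Tnfsf13b) and for 3.46% of all 27025 genes with one. The kappa B motif was found for 3 of 20 (Ltb, Tnfrsf25 and Tnfrsf9) and for 8.23% of these genes. Such a match is a run of letters and does not show a bound site.

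Receptors with a death domain did not pass in this comparison. Fas (14102) read 1.99, 1.74 and 1.94 FPKM after cryoablation and 4.49, 2.68 and 3.23 after cryo-thermal therapy, without overlap, and had a log2 fold change of 0.61 (SE 0.23, limma adjusted p = 0.0892). Tnfrsf10b, the TRAIL receptor, had 7.09 ± 0.699 and 6.44 ± 0.526 FPKM (limma adjusted p = 0.446), and Tnfrsf1a 42.8 ± 1.02 and 47.9 ± 4.93 (0.169). Tnfrsf21 (DR6), another receptor with a death domain, had 2.25 ± 0.559 and 2.73 ± 0.892 FPKM (0.484).

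Tnfrsf25 (DR3; 85030), a death domain receptor that also costimulates T cells, was highest after radiofrequency. Its values were 0.421, 0.522 and 0.582 FPKM after cryoablation, 1.16, 1.56 and 1.28 after radiofrequency and 0.885, 1.20 and 0.867 after cryo-thermal therapy. With anti-PD-1 they were 0.832, 0.677 and 0.735 (cryoablation), 0.963, 1.65 and 1.66 (radiofrequency) and 0.450, 0.715 and 0.927 FPKM (cryo-thermal). Each radiofrequency group had the highest mean of its antibody arm and stood wholly above the cryoablation group of the same antibody arm. Its log2 fold change was 0.63 (SE 0.13) for radiofrequency minus cryoablation (limma adjusted p = 0.106) and 0.39 (SE 0.13) for cryo-thermal minus cryoablation (0.0534), so neither passed.

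Tnfrsf13c (BAFF receptor; 72049), which B cells carry, had the largest change downward, though it did not pass. Cryoablation tumours had 2.07, 1.07 and 1.80 FPKM and cryo-thermal tumours 0.501, 0.638 and 1.45, which overlap, and the log2 fold change was -0.52 (SE 0.17, limma adjusted p = 0.0561). B cell genes were scarce: 6 of 7 were under the minimum, and the list summed to 0.309 to 0.732 FPKM after cryoablation and 1.21 to 6.70 after cryo-thermal therapy. In cryo-thermal replicates 1 and 2 most of that sum was Jchain, a gene of plasma cells, at 4.77 and 4.06 FPKM.

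Cryo-thermal against radiofrequency, 0 of the 28 described members passed limma's test, where 0.00794% of all genes did, and 10 had an unadjusted p under 0.05, as did 13.6% of all genes. Tnfrsf4 had the smallest, with a log2 fold change of 0.67 (SE 0.17, limma adjusted p = 0.262). Without cryo-thermal replicate 3, 4 members passed, as did 2.21% of all genes. Radiofrequency against cryoablation, 0 of the 28 passed as well (0.00794% of all genes), with 4 at an unadjusted p under 0.05 (15.1% of all genes): Tnfrsf25, Tnfsf9, Fas and Tnfsf13b. Tnfsf9 read 8.65, 9.54 and 9.46 FPKM after radiofrequency and 5.49, 6.32 and 4.48 after cryoablation, without overlap, a log2 fold change of 0.68 (SE 0.20, limma adjusted p = 0.155).

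With anti-PD-1 in both groups, and cryo-thermal therapy compared with cryoablation, Cd40, Tnfrsf14, Tnfrsf4, Tnfrsf1a and the ligands Tnfsf10 and Tnfsf13b rose, and none fell. These 6 are 21.4% of the described members, where 4.06% of all genes passed in either direction and 3.24% rose and 0.818% fell. The median log2 fold change of FPKM + 1 was 0.20 over the described members and 0.01 over all genes tested. Of the T cell genes 6 of 8 tested rose, and of the NK and cytotoxic genes 5 of 7. The part of these cells in the change was not tested.

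Cd40 had 4.62 ± 0.292 FPKM with cryo-thermal therapy and 1.87 ± 0.706 with cryoablation, a log2 fold change of 1.00 (SE 0.22, limma adjusted p = 0.0284). Tnfrsf14 (HVEM; 230979), a receptor of Tnfsf14 that also engages the inhibitory receptor BTLA, read 11.0, 16.4 and 18.4 FPKM against 11.0, 8.16 and 5.85. Its lowest cryo-thermal tumour and its highest cryoablation tumour met, and both were rich in hair follicle RNA. The log2 fold change of Tnfrsf14 was 0.81 (SE 0.19, limma adjusted p = 0.0332). Tnfrsf1a (21937), through which TNF signals to both NF-kappaB and cell death, read 51.4, 53.8 and 54.9 against 45.4, 39.2 and 45.1 FPKM without overlap. Its change was small, a ratio of means of 1.23 (log2 fold change 0.30, SE 0.07, limma adjusted p = 0.0395).

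The other members of the 8 went the same way apart from Tnfrsf25. Tnfsf13b had a log2 fold change of 0.77 (SE 0.20, limma adjusted p = 0.0471), Tnfsf10 of 0.74 (SE 0.18, 0.0328) and Tnfrsf4 of 0.66 (SE 0.17, 0.0427). Ltb had 1.11 (SE 0.32, 0.0640), Tnfrsf18 0.76 (SE 0.28, 0.139) and Tnfrsf22 0.14 (SE 0.11, 0.520), and none of these passed. Tnfrsf25 had -0.05 (SE 0.13, 0.863), a sign that turned without cryo-thermal plus anti-PD-1 replicate 1. Tnfrsf9 (21942), an activation marker of T and NK cells, read 18.3, 20.4 and 20.8 against 14.6, 6.72 and 8.01 FPKM, and Fas 4.38, 4.46 and 4.11 against 3.38, 1.19 and 1.66. Both were free of overlap and did not pass (limma adjusted p = 0.0640 and 0.0535).

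Single tumours moved this count. Leaving out replicate 2 or 3 of either group left 0 members in place of 6, where 0.0159% to 0.135% of all genes passed. A fit of only the tumours of both groups left 0 members and 0.0% of all genes. Leaving out cryoablation plus anti-PD-1 replicate 1 gave 11 members and 8.36% of all genes. Keeping every gene of the table in the test left 0 members and 0.678% of all genes.

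**Figure D3:**
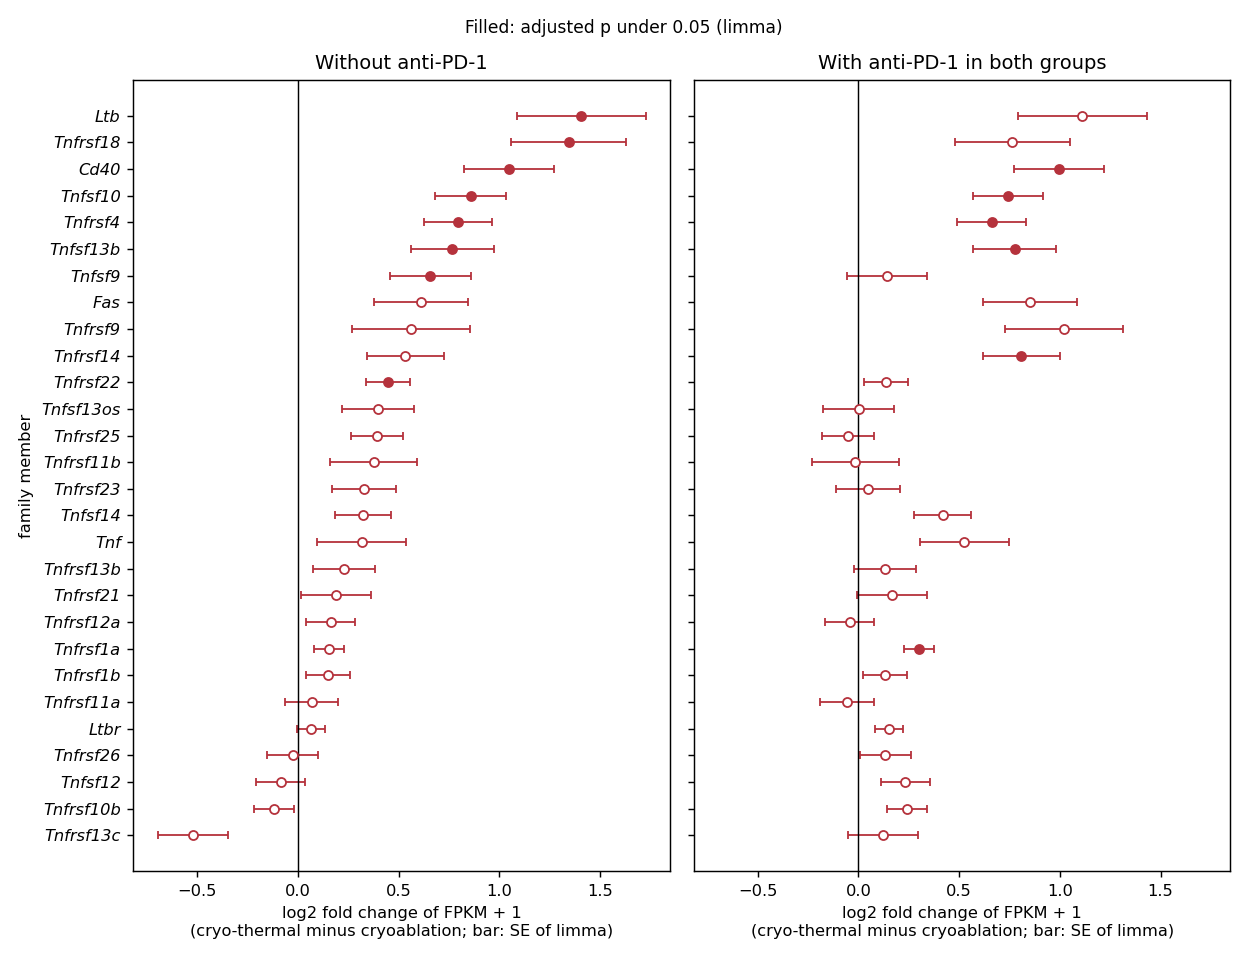
Each point is the log2 fold change of FPKM + 1 of 1 described member, cryo-thermal minus cryoablation, without anti-PD-1 (left) and with it in both groups (right); bars are the SE of limma and filled points have an adjusted p under 0.05. Of the 28 points 24 lie above 0 on each side, with 8 filled on the left and 6 on the right.

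Whether the cryo-thermal difference itself changed with anti-PD-1 was tested as a difference of differences, and 0 of the 28 described members passed (0.167% of all genes did), with 3 at an unadjusted p under 0.05 (13.4% of all genes). These 3 were receptors, and the lowest limma adjusted p of the 28 was 0.267. Over the 28 the difference was larger with anti-PD-1 in 12 and smaller in 16. Tnfrsf22 and Tnfsf9, called without anti-PD-1 and not with it, were not among the 3. For Tnfrsf22 the difference was smaller by 0.31 with anti-PD-1 (-0.31, SE 0.15, limma adjusted p = 0.401), and for Tnfsf9 it was -0.51 (SE 0.28, 0.450). Members called in 1 antibody arm and not in the other were therefore not shown to differ between the arms. The same test of cryo-thermal against radiofrequency called 0 members (0.0% of all genes), with 0 at an unadjusted p under 0.05 (7.23% of all genes).

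Cryo-thermal plus anti-PD-1 against radiofrequency plus anti-PD-1, 0 of the 28 described members passed (1.31% of all genes did), and 10 had an unadjusted p under 0.05 (17.2% of all genes). Tnfrsf25 was lower, at 0.697 ± 0.239 against 1.43 ± 0.402 FPKM (log2 fold change -0.51, SE 0.13, limma adjusted p = 0.0637). Tnfsf14 (LIGHT), which binds Ltbr and Tnfrsf14, was at 1.06 ± 0.265 against 0.471 ± 0.0647 FPKM (log2 fold change 0.48, SE 0.14, limma adjusted p = 0.0969). Without radiofrequency plus anti-PD-1 replicate 1, 1 member and 0.628% of all genes passed. Radiofrequency plus anti-PD-1 against cryoablation plus anti-PD-1, 0 members passed (0.0% of all genes), with 3 at an unadjusted p under 0.05 (5.85% of all genes).

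Between tumours with and without anti-PD-1, 5 receptors and none of the 7 described ligands passed. Averaged over the 3 ablations, Tnfrsf22, Tnfrsf12a and Tnfrsf11b rose with anti-PD-1 and Tnfrsf1b and Tnfrsf13c fell, 5 of the 28 described members (17.9%), where 10.0% of all genes passed, 5.28% higher and 4.75% lower. Tnfrsf12a, abundant on tumour and stromal cells and bound by Tnfsf12, read 156, 168 and 172 FPKM after cryoablation alone and 236, 197 and 229 with anti-PD-1. After radiofrequency it read 193, 161 and 129 alone and 209, 185 and 190 with the antibody, and after cryo-thermal therapy 198, 202 and 160, then 222, 206 and 213 FPKM. Only the cryoablation and cryo-thermal pairs of groups were free of overlap. The mean effect on Tnfrsf12a was 0.30 on the log2 scale (SE 0.07, limma adjusted p = 0.0179).

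Tnfrsf1b (21938), the TNF receptor of T cells and myeloid cells that lacks a death domain, was lower with anti-PD-1. After cryoablation it read 25.5, 24.8 and 23.7 FPKM alone and 20.2, 18.5 and 20.4 with the antibody, and after cryo-thermal therapy 26.4, 25.9 and 30.3, then 18.5, 23.0 and 23.9 FPKM, both without overlap. The radiofrequency groups overlapped, at 23.4, 30.6 and 27.9 alone and 20.6, 22.9 and 26.2 FPKM with the antibody. Its mean effect fell by 0.29 on the log2 scale (-0.29, SE 0.06, limma adjusted p = 0.0149). Tnfrsf22 rose by 0.30 (SE 0.06, limma adjusted p = 0.0119), and Tnfrsf11b (osteoprotegerin), a soluble decoy receptor for Tnfsf11, by 0.44 (SE 0.12, 0.0390). Tnfrsf13c fell by 0.40 (-0.40, SE 0.10, limma adjusted p = 0.0241).

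By ablation, 2 members passed with anti-PD-1 added to cryoablation, where 4.31% of all genes did, 1.79% higher and 2.53% lower. Tnfrsf13c had 0.529 ± 0.121 FPKM with the antibody and 1.65 ± 0.516 without, a log2 fold change of -0.78 (SE 0.17, limma adjusted p = 0.0305), and Tnfrsf22 had 9.25 ± 0.658 and 6.42 ± 0.901 FPKM, a change of 0.47 (SE 0.11, 0.0319). Leaving out any tumour of these groups but cryoablation replicate 2 left 0 (0% to 2.69% of all genes). With anti-PD-1 added to radiofrequency 0 of 28 passed (0.0477% of all genes), with 5 at an unadjusted p under 0.05 (11.6% of all genes). With it added to cryo-thermal therapy 0 of 28 passed (0.373% of all genes), with 2 at an unadjusted p under 0.05 (13.0% of all genes), Tnfrsf1b and Tnfrsf10b. Of the marker lists, 3 of 5 erythroid genes fell when the antibody was added to cryoablation, and 0 of 5 passed in the mean effect. In the mean effect 2 of 4 skeletal muscle genes rose, as did 2 of 8 tested T cell genes and 2 of 3 tested regulatory T cell genes. Skeletal muscle genes summed to 13.5 to 17.8 FPKM after cryoablation and 43.2 to 57.2 with the antibody, 3.00 to 22.0 and 30.8 to 75.1 in the radiofrequency groups, and 11.8 to 60.8 and 12.4 to 34.5 in the cryo-thermal groups. None of 6 tested keratinocyte and hair follicle genes passed with the antibody, although 2 of the 3 tumours of cryoablation plus anti-PD-1 were rich in them. Without the 3 tumours rich in hair follicle RNA, 0 members passed in the mean effect (1.58% of all genes) and 0 in the cryoablation pair (0.0% of all genes). The part of skin, muscle, blood or T cell RNA in these changes was not tested. Without cryoablation replicate 1 or cryo-thermal plus anti-PD-1 replicate 2 the mean effect had 3 members in place of 5 (5.39% and 5.99% of all genes), and without cryo-thermal replicate 1 it had 10 (13.4%).

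**Figure D4:**
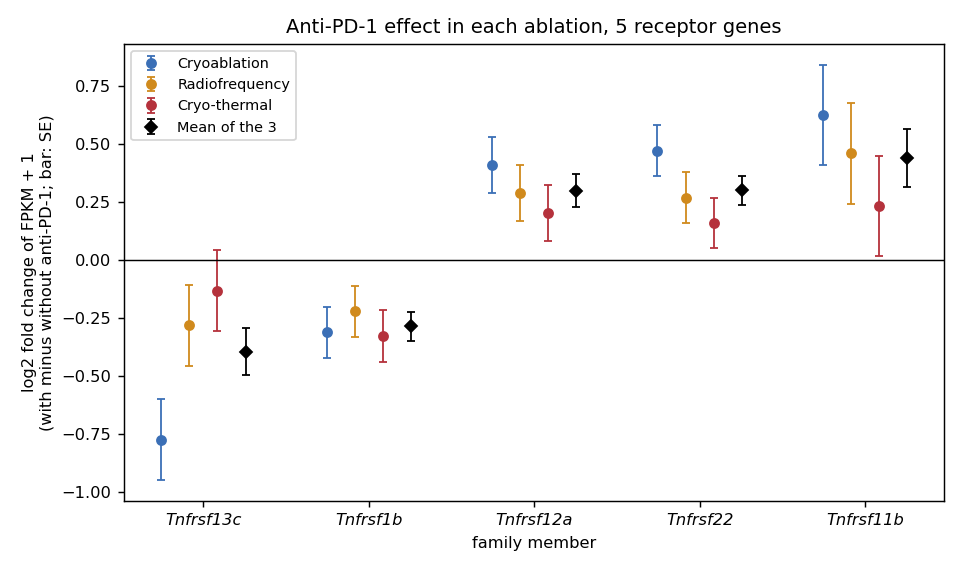
For the 5 members that passed in the mean effect of anti-PD-1, each round point is the log2 fold change of FPKM + 1 within 1 ablation (with minus without the antibody) and the diamond is the mean of the 3; bars are the SE of limma. The 3 effects of each member have the same sign, and for Tnfrsf13c they run from -0.78 in cryoablation to -0.13 in cryo-thermal therapy.

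Ligands and their receptors were set side by side in 20 known pairs, on FPKM, which is per length of gene. The receptor was the higher of the pair in every tumour in 15 of them. The 20 were chosen and do not cover every receptor, with Tnfrsf17 (mean 0.0204 FPKM) in none, so this count depends on the choice. The ratio of the receptor's to the ligand's group mean ran from 38.4 (cryo-thermal plus anti-PD-1) to 105 (radiofrequency) for Tnf and Tnfrsf1a. For Tnfsf12 and Tnfrsf12a it ran from 30.9 (cryoablation) to 54.6 (cryoablation plus anti-PD-1). Where the ligand rose and the receptor did not, the ratio fell: for Ltb and Ltbr it was 65.9 in the cryoablation group, 8.96 in the cryo-thermal group and 7.24 where anti-PD-1 was given with cryo-thermal therapy. Ltbr itself stayed between 22.7 and 29.0 FPKM in all 18 tumours. For Tnfsf10 and Tnfrsf10b the ratio was 36.8, 5.46 and 5.39 in the same groups.

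In the other pairs the ligand was the higher in at least 1 tumour. The B cell survival factor Tnfsf13b exceeded its receptor Tnfrsf13c in all but 7 of 18 tumours. The ratio of Tnfrsf13c to Tnfsf13b was 2.59 in the cryoablation group, 0.478 in the cryo-thermal group and 0.252 where anti-PD-1 was added to it. For Tnfsf13b and Tnfrsf13b the receptor was the higher in 8 of 18 tumours, and for Tnfsf11 and Tnfrsf11b in 11. Tnfsf9 and Tnfrsf9 were the closest abundant pair, with ratios of 1.33 to 2.45 and the receptor higher in 17 tumours. Tnfsf8 exceeded Tnfrsf8 (CD30) in all but 1 tumour, with both genes under the minimum.

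**Figure D5:**
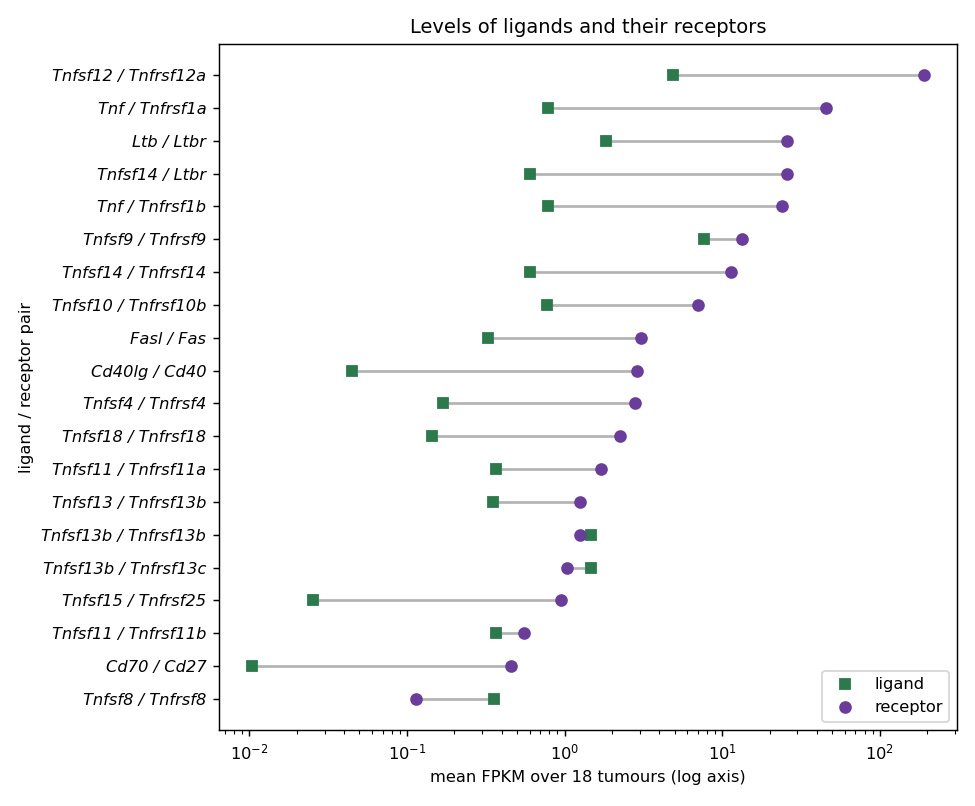
Each line joins the mean FPKM over 18 tumours (log axis) of a ligand (square) and a receptor (circle) known to bind each other, for 20 chosen pairs ordered by the level of the receptor. The circle lies right of the square in 17 pairs and left of it for Tnfsf13b with Tnfrsf13b, Tnfsf13b with Tnfrsf13c and Tnfsf8 with Tnfrsf8.

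A list of 75 genes held the signalling genes that act under these receptors and related family members. Of its 67 tested genes 14 rose and 1 fell in cryo-thermal against cryoablation, both without anti-PD-1, where 15.0% of all genes passed and 8.01% rose. Of 19 adaptors and proximal kinases 3 rose: Rnf31 (0.49), which builds linear ubiquitin chains at the TNF receptor complex, Tank (0.29) and Traf2 (0.28), all on the log2 scale. Of 11 death signalling genes 5 rose: Ripk3 (0.75) and Mlkl (0.53), which carry out necroptosis, Daxx (0.41), Bid (0.35) and Fadd (0.27). Of 13 NF-kappaB factors and kinases 3 rose, Nfkbie (0.46), Nfkbib (0.29) and Ikbkb (0.24). Among 14 tested NF-kappaB feedback and target genes Icam1 (1.27), an adhesion molecule, and Tnip3 (0.56) rose, while the neutrophil chemokine Cxcl1 fell by 2.21 (-2.21). Cxcl1 had 13.9 ± 7.47 FPKM after cryo-thermal therapy and 61.5 ± 6.12 after cryoablation, and neutrophil genes, 4 of 5 over the minimum (Ly6g was not), summed to 4.82 to 39.6 and 107 to 264 FPKM. Of 4 shedding enzymes and cofactors Rhbdf2 rose (0.37), and 0 of 3 tested lymphotoxin target genes passed.

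With anti-PD-1 in both groups 10 of the 67 rose and none fell. Of all genes 4.06% passed and 3.24% rose. These calls also leaned on single tumours. A fit of only the tumours of both groups left 0% of all genes. Without cryoablation plus anti-PD-1 replicate 2, 0.0159% of all genes passed. Bcl3, a nuclear partner of NF-kappaB proteins, had the smallest p, at 18.8 ± 0.560 against 9.29 ± 1.31 FPKM (log2 fold change 0.95, SE 0.10, limma adjusted p = 0.00151). The others included Icam1 (1.06), Nfkbie (0.70), Tnip1 (0.58), Rnf31 (0.53), Birc3 (0.46), Traf1 (0.44), Nfkbib (0.32) and Ikbkb (0.30). The median log2 fold change over the 67 was 0.11 without and 0.19 with anti-PD-1.

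The other described members gave no call in any comparison between 2 groups or in the mean effect. Tnf itself (21926) was low, at 0.332, 0.867 and 0.559 FPKM after cryoablation, 0.408, 0.464 and 0.301 after radiofrequency and 1.76, 0.895 and 0.428 after cryo-thermal therapy. With anti-PD-1 it read 0.896, 0.448 and 0.534, then 0.780, 0.701 and 0.560, then 2.18, 1.11 and 0.864 FPKM. Replicate 1 was the highest tumour of both cryo-thermal groups, and the F test of Tnf had an adjusted p of 0.145. Tnfsf14 passed the F test over 6 groups (limma adjusted p = 0.0443) with group means of 0.382 to 1.06 FPKM. Tnfrsf21, Tnfrsf26, Tnfrsf13b (TACI) and the antisense RNA Tnfsf13os had adjusted p from 0.427 to 0.748 in it. Tnfsf12 had group means of 4.04 to 5.36 FPKM and Tnfrsf11a (RANK) of 1.45 to 1.97.

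The 15 members under the minimum were 11 ligands and 4 receptors, none with a group mean over 0.999 FPKM. Cd27, a costimulatory receptor of T cells, had that mean in the cryo-thermal plus anti-PD-1 group and 0.0729 after cryoablation. Fasl, the ligand of Fas on cytotoxic cells, had 0.749 and 0.0768 FPKM in these groups, and Lta, the partner of Ltb, 0.450 and 0.173. With all 26538 genes kept in the test, Cd27, Fasl and Tnfsf8 passed in cryo-thermal against cryoablation, where 4.88% of all genes did. Tnfsf18, the ligand of Tnfrsf18, was highest with anti-PD-1 in the cryoablation and radiofrequency groups, at 0.349 ± 0.212 and 0.317 ± 0.159 FPKM, and had means of 0.0168 to 0.0818 FPKM in the other 4 groups. The remaining ones were Tnfsf11 (highest group mean 0.593), Tnfsf8 (0.504), Tnfsf13 (0.484), Tnfsf4 (0.306) and Tnfrsf8 (0.170). Below these came Cd40lg (0.154), Tnfrsf19 (0.0691), Tnfsf15 (0.0547), Tnfrsf17 (0.0384), Cd70 (0.0313) and the readthrough gene Tnfsfm13 (0.00390). Cd70 was listed at 0 in all 9 tumours without anti-PD-1.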

How the data were processed

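Per the labels' protocols, RNA of 18 mouse tumours was isolated by TRIzol, cleaned on a silica column with DNase treatment and made into libraries by the VAHTS Universal V6 kit. The authors deposited FPKM values (fragments scaled to gene length and mapped fragments) for 26538 genes. The submitters' processing notes name HTSeq 0.11.2. Which aligner, build, annotation and strand setting were used is not given in the sources used here. FPKM sums were 408042 to 442383 per tumour. Fragment counts were not analysed here. Relative depth was read from low values: of 24076 such values in 2798 genes, 99.66% lay within 0.05 fragments of a whole number of steps.

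Groups came from the treatment labels. The analysis used log2(FPKM + 1), which understates changes of low genes, for the 12587 genes with a mean of at least 0.5 FPKM. All 18 tumours entered 1 group mean model of limma 3.58.1 (R 4.3.3, moderated variances with a mean trend), 2-sided, with Benjamini-Hochberg adjustment over all genes of each comparison and a threshold of 0.05. There were 12 contrasts and an F test over the 6 groups. The comparisons share tumours and are not independent, and no adjustment was made over them. A self-test on simulated data was run. A value after ± is the SD of 3 tumours. With 3 tumours against 3 an exact permutation test cannot go below p = 0.1.

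The genes, the signalling and marker lists and the tests were chosen with earlier results of these data known. Full values were given for the 8 members with the smallest F test p, and for up to 6 per direction that passed in other comparisons; members named for another reason were chosen after their values were seen. Alternatives were another pseudocount (0.1), other filters, 2 rescalings, tumour weights, a replicate block, a fit of only the compared groups, and leaving out the 3 tumours rich in hair follicle RNA or each tumour in turn. Overlaps of exons and shared words of 50 bases were computed from GENCODE vM21, and promoters and neighbours were taken from RefSeq (GRCm38.p6). Python 3.11.15, pandas 2.3.3, numpy 2.4.6 and matplotlib 3.10.9 were used.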

Additional observations from a re-analysis of the deposited data

How the results depend on the processing

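The counts of members that passed depended on how tumours were weighted. With limma's array weights, whose estimation stopped before convergence, 16 members passed in cryo-thermal against cryoablation, 7 against radiofrequency, 2 in radiofrequency against cryoablation, 14 and 12 in the same cryo-thermal comparisons with anti-PD-1, 13 and 7 with anti-PD-1 added to cryo-thermal therapy and to cryoablation, 11 in the mean effect of anti-PD-1, 9 in its difference between cryo-thermal therapy and cryoablation, and 25 in the F test. Of all genes 43.4%, 10.9%, 4.54%, 33.0%, 17.1%, 42.4%, 15.7%, 20.9%, 20.9% and 71.9% passed with these weights in the same order. Keeping all genes left 0 in cryo-thermal against cryoablation with anti-PD-1 and 0 with anti-PD-1 added to cryoablation (0.678% and 0.528% of all genes). A fit of only the compared groups gave 0 and 5 in these (0% and 4.19% of all genes). Without the 3 tumours rich in hair follicle RNA 0 passed with anti-PD-1 added to cryoablation, 0 in the mean effect and 1 in cryo-thermal against radiofrequency with anti-PD-1. Of all genes 0%, 1.58% and 1.51% passed in the same order. The cause of these shifts was not tested. Leaving out 1 tumour gave 1 to 10 in cryo-thermal against cryoablation, 0 to 11 with anti-PD-1, 0 to 4 and 0 to 1 against radiofrequency without and with it, 0 to 2 with anti-PD-1 added to cryoablation, 3 to 10 in the mean effect and 7 to 15 in the F test. The share of all genes that passed moved as well, as given above for the tumours named there. The log2 fold change of Tnfrsf25 in cryo-thermal against cryoablation with anti-PD-1, -0.05, became 0.0668 without the 3 tumours rich in hair follicle RNA and ran from -0.148 to 0.0571 when 1 tumour was left out, the last without cryo-thermal plus anti-PD-1 replicate 1. Tumours with the same replicate number did not deviate together (mean r -0.007 over 45 pairs), and 7 of 18 were closest to their own number. With the replicate number as a block, 3 members passed in cryo-thermal against cryoablation with anti-PD-1 in place of 6 (3.15% of all genes in place of 4.06%), and every other count stayed within 1.5 times. Of the values of single named members and of signalling genes that passed, 562 kept their side of the threshold, 240 lost a call, 10 gained one and 2 changed sign. Members under about 1 FPKM rest on few fragments.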
